A study of Mus musculus with 24 samples.

Results

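The genes of glycogen metabolism followed here by RNA-seq of mouse brown fat were the synthesis genes Ugp2, Gys1, Gys2 and Gbe1, the phosphorylase genes Pygl and Pygb, the protein phosphatase 1 targeting subunits Ppp1r3b and Ppp1r3c, and the glycogen-binding protein gene Stbd1. They are 9 of 36144 genes in the count table, and 9 of 9 passed the filter on low counts that left 13129 genes. The pathway was chosen by the p-value of Ppp1r3c, one of the smallest (rank 11 of 13129) when Th-Cre mice given the ligand were compared with Th-Cre mice given saline. That contrast therefore chose the genes, and its values are given below as a description for all 9, with no test. The same holds for the contrast between genotypes for Ppp1r3c, which reuses those libraries.

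The samples were interscapular brown adipose tissue, a fat depot that burns fuel to make heat, from 24 mice of 6 to 8 months, taken 30 minutes after DCZ (deschloroclozapine) or saline. Each of 4 groups held 6 mice, 3 of either sex: wild-type mice (WT, C57Bl/6J) given saline, WT mice given DCZ, Th-Cre mice (B6.129X1- Tht1(cre)Te/Kieg) given saline and Th-Cre mice given DCZ. DCZ is a ligand of designer muscarinic receptors, which respond to it and not to the natural transmitter. In Th-Cre mice the regulatory sequence of tyrosine hydroxylase drives Cre recombinase, which directs it to cells that make catecholamines, sympathetic neurons among them. Which receptor was used, and its delivery, is not given in the sources used here. The library numbers run through the WT mice first and the Th-Cre mice after, so a difference between genotypes and one between those runs of libraries cannot be told apart. In WT mice, 5 of the 6 lower mouse numbers were given DCZ and 5 of the 6 upper ones saline.

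Glycogen is a branched polymer of glucose that cells keep as a quickly usable store, and brown fat makes and breaks it down too. UDP-glucose pyrophosphorylase (Ugp2) makes the activated glucose, glycogen synthase (Gys1 or Gys2) lengthens the chain and the branching enzyme (Gbe1) adds branches, while glycogen phosphorylase (Pygl or Pygb) removes glucose from the chain ends. Adrenergic signals act within minutes through phosphorylation, which activates phosphorylase and inhibits synthase. Protein phosphatase 1, held on the glycogen particle by targeting subunits such as Ppp1r3b and Ppp1r3c, reverses both.

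On GRCm38 (GENCODE M21) the 9 genes lie on 9 chromosomes. Ppp1r3c (also called PTG) is at chr19:36731731-36736653 on the minus strand with no overlapping gene, and Ppp1r3b at chr8:35375739-35388139 on the plus strand, where Gm45469 overlaps it on the other strand. Gys1 (chr7:45434844-45456619, plus) overlaps Ruvbl2 on the other strand, Ugp2 (chr11:21321138-21371201, minus) overlaps Mir1933 and Gm12043, and Pygl (chr12:70190811-70231488, minus) overlaps F730035M05Rik. Gys2 is at chr6:142422613-142473109 on the minus strand, Gbe1 at chr16:70313949-70569716, Pygb at chr2:150786735-150831758 and Stbd1 at chr5:92603041-92606579, all 3 on the plus strand. Whether counting used strand is not stated in these sources, and overlapping genes may share reads.

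The RefSeq promoter table (GRCm38.p6) held 7 of the 9 genes, and not Gys2 or Ppp1r3b. In 6 of them the 180 bases upstream of both the RefSeq and the GENCODE start could be read. Those of 4 genes on which the results turn are given 5′ to 3′ in the direction of the gene: Ppp1r3c and Pygb, which differed between the sexes, and Gbe1 and Ugp2, which differed between genotypes. Capitals mark a motif named below.
Ppp1r3c: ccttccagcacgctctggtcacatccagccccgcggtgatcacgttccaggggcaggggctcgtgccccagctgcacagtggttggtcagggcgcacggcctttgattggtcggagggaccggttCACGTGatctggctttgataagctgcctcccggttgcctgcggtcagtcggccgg
Gbe1: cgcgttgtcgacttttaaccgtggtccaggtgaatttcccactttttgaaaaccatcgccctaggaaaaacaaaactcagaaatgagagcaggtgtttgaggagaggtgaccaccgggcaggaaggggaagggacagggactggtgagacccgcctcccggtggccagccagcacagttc
Ugp2: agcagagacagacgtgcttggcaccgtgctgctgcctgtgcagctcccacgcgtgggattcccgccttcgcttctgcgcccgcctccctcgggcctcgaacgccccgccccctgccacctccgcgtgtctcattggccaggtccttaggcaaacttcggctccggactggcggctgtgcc
Pygb: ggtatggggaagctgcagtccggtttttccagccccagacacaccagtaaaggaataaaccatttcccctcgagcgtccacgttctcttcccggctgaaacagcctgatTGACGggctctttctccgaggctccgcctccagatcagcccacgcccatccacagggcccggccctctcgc
These windows are chr19:36736654-36736833 (minus), chr16:70313769-70313948 (plus), chr11:21371268-21371447 (minus) and chr2:150786555-150786734 (plus), in that order. Both strands were searched for the E-box CACGTG, the cAMP response element TGACGTCA and its core TGACG (which the full element contains), the AP-1 site TGAGTCA and the FOXO site GTAAACA. The E-box was found in the Ppp1r3c window, in 1 of the 6 windows, against 4.81% of 32851 RefSeq promoters over the same length. The core TGACG was found in the Pygb window, also in 1 of 6, against 14.8% of promoters. The 3 remaining motifs were in 0 of the 6 windows, against 1.45% of promoters for the full element, 3.33% for AP-1 and 2.23% for FOXO. The background promoters were all read directly upstream of the RefSeq start, while the Ppp1r3c and Pygb windows lay 49 and 61 bases further upstream. Those shares are therefore for windows of the same length at a slightly different position. A match of letters describes the window and is not evidence of binding.

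Libraries held 11.9 to 22.9 M estimated counts. All 10 brown adipocyte markers were present (summed level 10506.5 to 17418 CPM, counts scaled to a fixed library total after TMM normalization; values by genotype stand beside that comparison), and sympathetic neuron markers summed to at most 0.135 CPM. Liver markers, checked because Gys2 and Pygl are the liver isoforms, summed to at most 1.83 CPM. The 13 skeletal muscle markers stood apart in 6 libraries: WT12 (WT saline), DN2087, DN2094 and DN2086 (Th-Cre saline) and DN2075 and DN2091 (Th-Cre DCZ). Their mean log2 level was 2.68 to 6.55 there and 0.70 to 1.54 in the other 18 libraries. Muscle stores glycogen too, so values without these 6 libraries stand beside the DCZ results of Th-Cre mice, the genotype results in saline and those by sex.

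**Figure D1:**
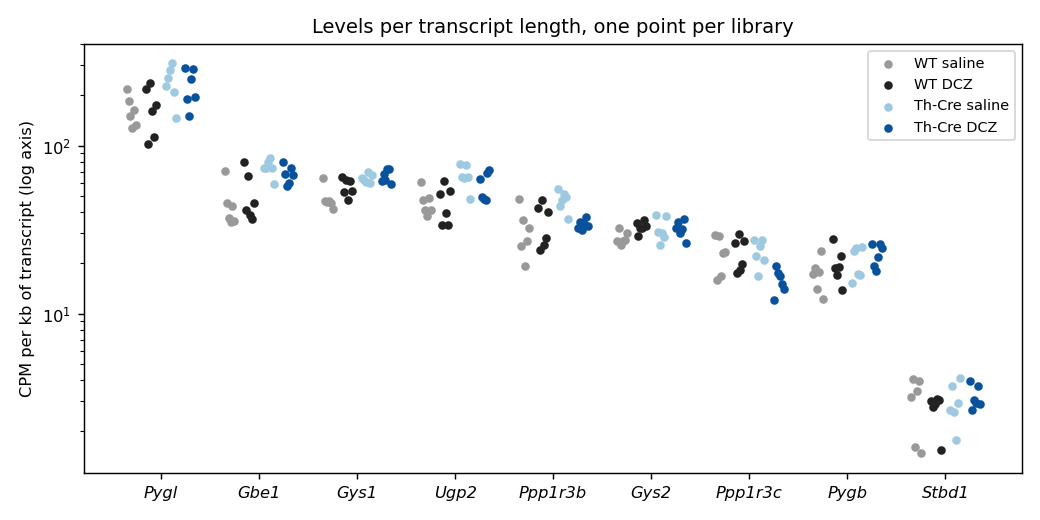
Level of each of the 9 genes in CPM per kb of the longest coding transcript (log axis), with 1 point for each of 24 libraries, colored by group. Pygl lies highest (mean 198 CPM per kb) and Stbd1 lowest (mean 2.97 CPM per kb).

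Per length of the longest coding transcript, brown fat held mostly the liver-type isoform of phosphorylase and mostly the muscle-type isoform of synthase. Pygl was the highest of the 9 at 198 ± 59.1 CPM per kb (SD, n = 24), above Gbe1 (59.3), Gys1 (58.8), Ugp2 (54.0), Ppp1r3b (36.8), Gys2 (31.3), Ppp1r3c (21.2), Pygb (20.0) and Stbd1 (2.97). Of these steps, Pygl above Gbe1, Ugp2 above Ppp1r3b and Pygb above Stbd1 held in 24 of 24 libraries, and Gys2 above Ppp1r3c in 22 of 24. Neighbours that did not separate were Gbe1 and Gys1 (Gbe1 higher in 11 of 24), Gys1 and Ugp2 (14 of 24), Ppp1r3b and Gys2 (15 of 24) and Ppp1r3c and Pygb (9 of 24). With the length of all exons joined, the order after Pygl was Ugp2, Gys1, Gbe1, Gys2 and Ppp1r3b.

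Of the summed phosphorylase level per kb, Pygl made up 89.3% ± 2.77 (SD, n = 24), Pygb, the isoform named for brain, 9.57% and Pygm, the muscle isoform, 1.16%. Pygm reached 48.2 CPM in DN2094 and lay at 5.71 CPM or less in the 18 libraries without raised muscle markers. Of glycogen synthase, Gys1 made up 65.1% ± 3.46 and Gys2 34.9%. Among 7 targeting subunits, Ppp1r3b made up 51.9% ± 4.57, Ppp1r3c 30.3% ± 5.22, Ppp1r3d 10.9%, Ppp1r3e 4.54%, Ppp1r3g 1.42%, Ppp1r3f 0.898% and Ppp1r3a 0.0440%. The pair Ppp1r3b and Ppp1r3c thus carried most of the targeting-subunit transcripts in this tissue. All these shares depend on the length used, which the SD does not cover. With all exons joined, mean levels per kb were 86.0 for Pygl, 16.2 for Pygb and 2.37 for Pygm. By that length Gys1 stood at 45.2 and Gys2 at 31.3, and Ppp1r3b at 26.0 and Ppp1r3c at 21.2, so these pairs lay closer together.

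**Figure D2:**
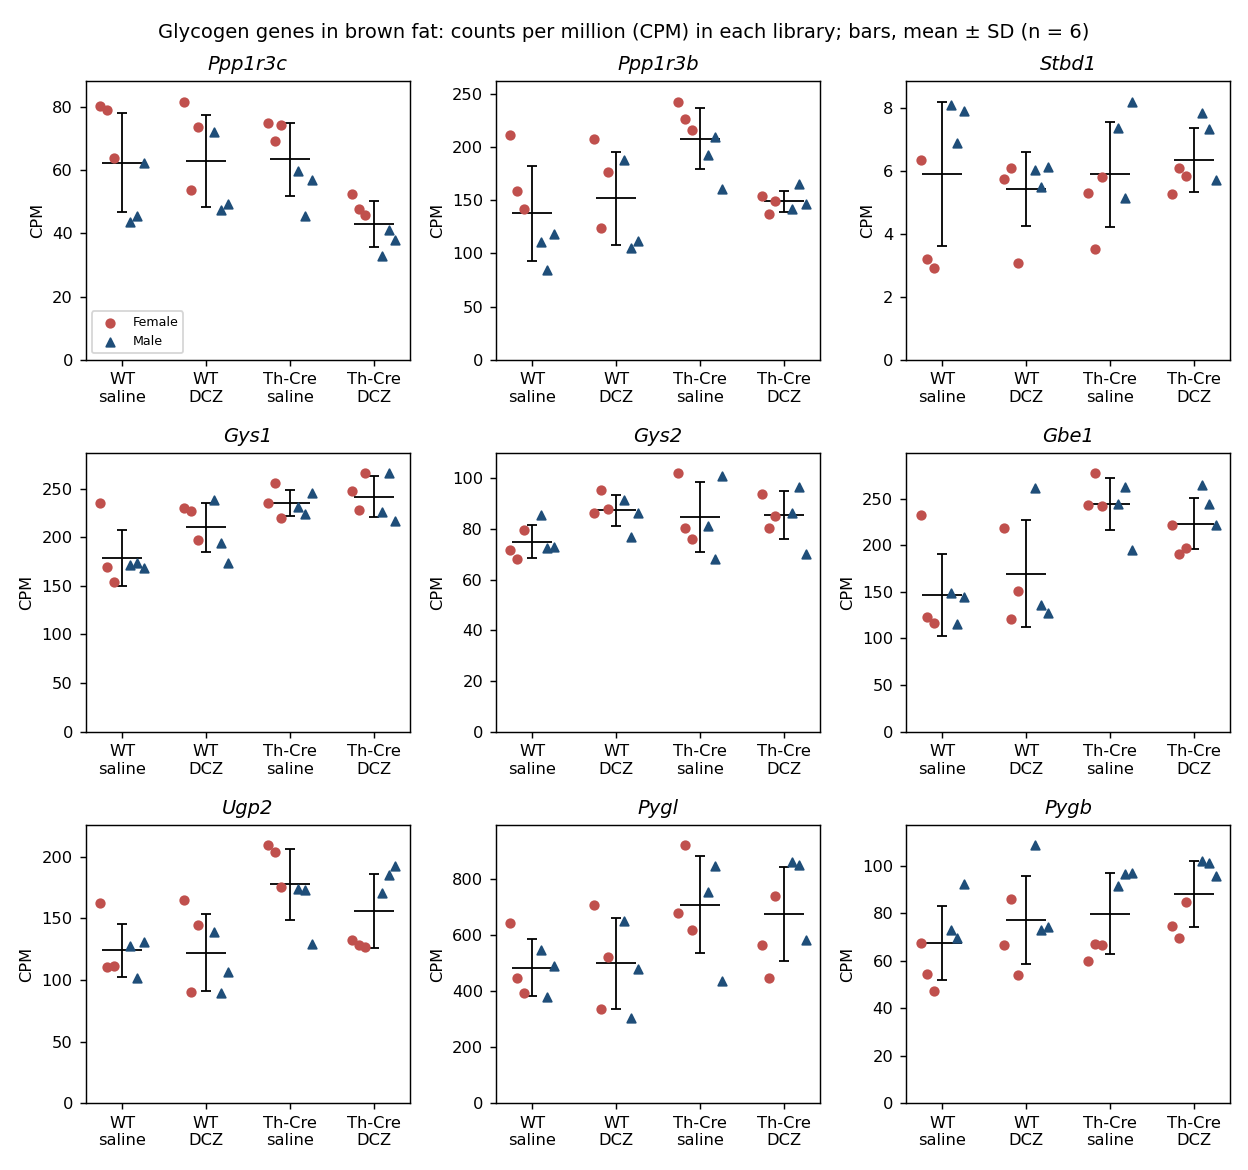
Level of each of the 9 genes in CPM (y axes from 0) in all 24 libraries by group, with females as circles, males as triangles and black bars for the group mean ± SD (n = 6). The 6 Th-Cre DCZ libraries lie between 32.7 and 52.5 CPM for Ppp1r3c and between 137 and 165 CPM for Ppp1r3b.

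Among the targeting subunits, Ppp1r3c was lower after DCZ in Th-Cre mice than in the other groups, with means of 62.3 to 63.4 CPM. In Th-Cre mice given DCZ it ran from 32.7 to 52.5 CPM (median 43.4), and in Th-Cre mice given saline from 45.6 to 74.8 CPM (median 64.4). It ran from 43.5 to 80.1 CPM (median 62.9) in WT mice given saline and from 47.4 to 81.6 CPM (median 62.9) in WT mice given DCZ. The Th-Cre groups overlapped, as 3 of the 6 libraries after DCZ were within the saline range, and within each sex they did not overlap. Female Th-Cre mice lay at 45.8 to 52.5 CPM after DCZ and 69.1 to 74.8 CPM after saline. Male Th-Cre mice lay at 32.7 to 41.1 CPM after DCZ and 45.6 to 59.6 CPM after saline. In each sex the 3 Th-Cre mice given DCZ had the lowest levels of all 12 mice.

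As means, Ppp1r3c stood at 42.9 ± 7.12 CPM (SD, n = 6) after DCZ and 63.4 ± 11.5 CPM after saline in Th-Cre mice, a fitted log2 difference of −0.56 ± 0.116 (SE), or 0.679-fold. This value chose the gene and carries no test. Of all 13129 genes, 0.0229% (3 genes) passed the threshold in the same contrast by edgeR's quasi-likelihood test with Benjamini-Hochberg adjustment. Bulk RNA does not tell fewer cells of a type from less RNA per cell. Without the 6 libraries with raised muscle markers the difference was −0.64 on the log2 scale, and leaving out single libraries gave −0.61 to −0.53.

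The same contrast in WT mice, which was not used to choose the gene and could be tested, gave 62.9 ± 14.6 CPM after DCZ and 62.3 ± 15.7 CPM after saline. The log2 difference was 0.03 ± 0.115 (95% interval −0.21 to 0.27, adjusted p = 0.955 by edgeR), and the groups overlapped throughout. The spread in that fit came from all libraries, those that chose the gene among them. The fitted difference between the Th-Cre and WT changes was −0.59 ± 0.164, again a description, since it contains the contrast that chose the gene. Between genotypes the log2 difference of Ppp1r3c was 0.03 ± 0.115 in saline and −0.56 ± 0.116 in DCZ, also as a description.

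Ppp1r3b, the subunit that is most abundant in liver, also had a negative difference after DCZ in Th-Cre mice, from a saline level that was above that of WT mice. It ran from 137 to 165 CPM (median 148) in Th-Cre DCZ and from 160 to 243 CPM (median 213) in Th-Cre saline libraries, so that 5 of 6 DCZ libraries lay below every saline library. In WT mice it ran from 84.0 to 211 CPM (median 130) after saline and from 105 to 207 CPM (median 150) after DCZ. The Th-Cre DCZ libraries were the narrowest group and sat inside the WT range. The group means were 149 ± 9.75 (SD, n = 6) and 208 ± 28.6 CPM in Th-Cre mice, a log2 difference of −0.46 ± 0.153 or 0.725-fold, and 152 ± 43.7 and 138 ± 44.5 CPM in WT mice, a log2 difference of 0.16 ± 0.153 (adjusted p = 0.753 by edgeR). By sex, the Th-Cre log2 ratio was −0.64 in females, with no overlap, and −0.31 in males, with overlap. The difference between the Th-Cre and WT changes was −0.63 ± 0.216, a description. Without the 6 libraries with raised muscle markers the Th-Cre log2 difference was −0.45.

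With both sexes together, the other 7 genes had smaller differences between Th-Cre DCZ and Th-Cre saline mice in this description. Their log2 differences were −0.18 ± 0.156 for Ugp2, −0.13 ± 0.177 for Gbe1, −0.07 ± 0.206 for Pygl, 0.01 ± 0.0928 for Gys2, 0.04 ± 0.0885 for Gys1, 0.13 ± 0.190 for Stbd1 and 0.16 ± 0.111 for Pygb. Over the 9 genes, 4 differences were positive and 5 negative, with a median of −0.07 against 0.0005 over all genes.

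These values averaged over both sexes, and the log2 ratios of Ugp2, Gbe1 and Pygl had opposite signs in females and males. Ugp2 in Th-Cre females lay at 126 to 132 CPM after DCZ and 175 to 209 CPM after saline, a log2 ratio of −0.60 with no overlap, as large as that of Ppp1r3c. In Th-Cre males it lay at 171 to 193 CPM after DCZ and 129 to 174 CPM after saline, a log2 ratio of 0.20 with overlap. Gbe1 gave −0.32 in females, with every DCZ mouse below every saline mouse, and 0.06 in males, with overlap. Pygl gave −0.34 and 0.17, with overlap in both sexes, and Pygb 0.25 in females, with every DCZ mouse above every saline mouse, and 0.07 in males. With 3 mice of a sex in each group these are descriptions, and the difference between the sexes was not tested. Without the 6 libraries with raised muscle markers Ugp2 stood at −0.16, Gbe1 at 0.01, Pygl at 0.13 and Pygb at 0.14, both sexes together. Of the Th-Cre females, DN2094 and DN2086 (saline) and DN2075 (DCZ) were among those 6. The female values of all members include them, and the part of muscle in these values was not tested. Ppp1r3c and Ppp1r3b were the members with a log2 ratio under −0.3 in both sexes. Separation within a sex was also seen in WT mice. There every DCZ mouse lay above every saline mouse for Gys1 in males (0.24) and Gys2 in females (0.30). For Stbd1 in WT males every DCZ mouse lay below (−0.38). How many of all genes separated within a sex was not counted, so non-overlap here marks no gene or genotype as particular.

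**Figure D3:**
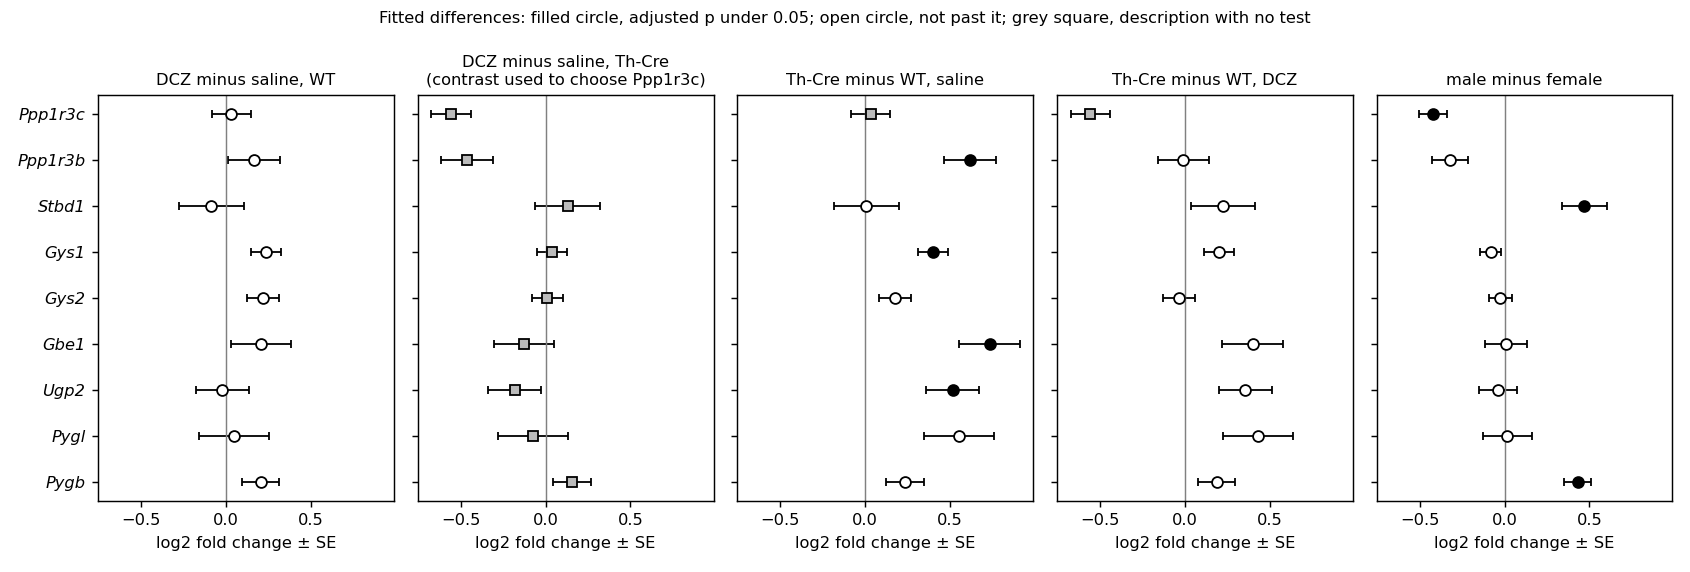
Fitted log2 differences of the 9 genes with error bars of 1 SE, in a panel for each of 5 comparisons. Filled circles passed the threshold, open circles did not, and grey squares are descriptions with no test. In Th-Cre DCZ against Th-Cre saline the lowest points are Ppp1r3c at −0.56 and Ppp1r3b at −0.46, and in Th-Cre against WT saline all 9 points lie above 0.

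In WT mice, 0 of the 9 genes passed the threshold after DCZ by edgeR, where 0.00762% of all genes (1 of 13129) did. By the same test 1137 genes had an unadjusted p under 0.05. The count was also 0 of 9 by limma-voom (0% of all genes) and DESeq2 (0.0152% of all genes). The smallest p among the 9 was that of Gys1, the synthase of muscle and most tissues. It ran from 154 to 235 CPM (median 170) after saline and from 174 to 238 CPM (median 212) after DCZ, with a log2 difference of 0.23 ± 0.0886 (unadjusted p = 0.0141, adjusted p = 0.527 by edgeR). Gys2, the liver-type synthase, lay at 68.1 to 85.4 CPM (median 72.6) after saline and 77.0 to 95.4 CPM (median 87.1) after DCZ, a log2 difference of 0.22 ± 0.0928 (adjusted p = 0.530 by edgeR). In that gene 5 of 6 DCZ libraries lay above every saline library.

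The other log2 differences in WT mice were 0.21 ± 0.178 for Gbe1, 0.20 ± 0.111 for Pygb, 0.05 ± 0.206 for Pygl, −0.02 ± 0.156 for Ugp2 and −0.09 ± 0.190 for Stbd1. Adjusted p over the 9 ran from 0.527 to 0.978 by edgeR. As a count, 7 of 9 were positive with a median of 0.16, against −0.0007 over all genes. DCZ and mouse number were nearly the same split in WT mice, so their parts cannot be told apart. The difference between the changes in the 2 genotypes passed for 0.00762% of all genes (1 of 13129) by edgeR. For the members it is a description: −0.33 ± 0.251 for Gbe1, −0.21 ± 0.131 for Gys2, −0.20 ± 0.125 for Gys1, −0.16 ± 0.221 for Ugp2, −0.12 ± 0.292 for Pygl, −0.05 ± 0.157 for Pygb and 0.22 ± 0.269 for Stbd1.

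Between genotypes without DCZ, the synthesis genes Gys1, Gbe1 and Ugp2 and the targeting subunit Ppp1r3b were called higher in Th-Cre mice. The calls did not divide synthesis from breakdown. The synthesis gene Gys2 (0.18) was not called, and the phosphorylase gene Pygl (0.55) narrowly missed the threshold with a larger difference than Gys1 (0.40). Of the 8 genes that could be tested, 4 were higher (Gys1, Gbe1, Ugp2 and Ppp1r3b) and 0 lower by edgeR, where 12.5% of all genes were higher and 12.4% lower. All 9 differences were positive, with a median of 0.40 against −0.01 over all genes.

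Gbe1, the branching enzyme, had the largest difference of these 4. It ran from 115 to 232 CPM (median 134) in WT and from 195 to 277 CPM (median 244) in Th-Cre saline libraries, and 5 of 6 Th-Cre libraries lay above every WT library. The means of 147 ± 44.2 and 244 ± 28.0 CPM (SD, n = 6) gave a log2 difference of 0.73 ± 0.178, or 1.66-fold (adjusted p = 0.00570 by edgeR). The WT range owed its top to WT2 at 232 CPM, the next library being at 149 CPM.

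Gys1 ran from 154 to 235 CPM (median 170) in WT and from 220 to 256 CPM (median 233) in Th-Cre saline libraries. Its log2 difference was 0.40 ± 0.0887 (1.32-fold, adjusted p = 0.00355 by edgeR). Here too WT2 was the one WT library within the Th-Cre range, with the next at 173 CPM. Ugp2, which supplies the activated glucose, ran from 102 to 162 CPM (median 120) in WT and from 129 to 209 CPM (median 175) in Th-Cre saline libraries, with 5 of 6 above every WT library. Its log2 difference was 0.52 ± 0.156 (1.43-fold, adjusted p = 0.0190 by edgeR). Ppp1r3b, with the levels given above, differed by 0.62 ± 0.153 (1.54-fold, adjusted p = 0.00618 by edgeR), with 3 of 6 Th-Cre libraries above every WT library.

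Pygl, the main phosphorylase, ran from 379 to 646 CPM (median 469) in WT and from 436 to 922 CPM (median 717) in Th-Cre saline libraries. Its log2 difference of 0.55 ± 0.207 missed the threshold (adjusted p = 0.0527 by edgeR). Without the 6 libraries with raised muscle markers it was 0.31 (adjusted p = 0.489). It passed by DESeq2 (adjusted p = 0.0452), with median-of-ratios factors, with a stricter filter or none, in the 2 groups alone and without any 1 of 7 single libraries (smallest adjusted p 0.0202, without WT2). The remaining values were 0.23 ± 0.111 for Pygb (adjusted p = 0.121), 0.18 ± 0.0929 for Gys2 (adjusted p = 0.166) and 0.01 ± 0.191 for Stbd1 (adjusted p = 0.982), all by edgeR.

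The genotype calls rested on all libraries together. Without the 6 libraries with raised muscle markers, 0 of 8 genes passed by edgeR, with differences of 0.58 for Gbe1 (adjusted p = 0.150), 0.39 for Gys1 (adjusted p = 0.0664), 0.44 for Ugp2 (adjusted p = 0.187) and 0.60 for Ppp1r3b (adjusted p = 0.0977), while 0.813% of all genes (109 of 13414) still passed. Gys2 was 0.36 there, against 0.18 with all libraries, and did not pass (adjusted p = 0.0615). In females alone 0 of 8 passed, where 6 of 13237 genes did, and in males alone 2 of 8 did (Gys1 and Ppp1r3b), where 5% of all genes (658 of 13154) did. The part of muscle in these differences was not tested.

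Markers of other cells also ran with genotype. Summed brown adipocyte markers were 13480.8 to 17418 CPM in the 12 WT and 10506.5 to 13126.8 CPM in the 12 Th-Cre libraries, without overlap, while their mean log2 level overlapped (8.19 to 8.68 in WT and 7.93 to 8.56 in Th-Cre libraries). In saline mice, summed endothelial markers had a median of 643 CPM in WT and 462 CPM in Th-Cre libraries. Those of smooth muscle and pericytes had medians of 493 CPM and 361 CPM. The part of these shifts in the genotype differences was not tested.

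**Figure D4:**
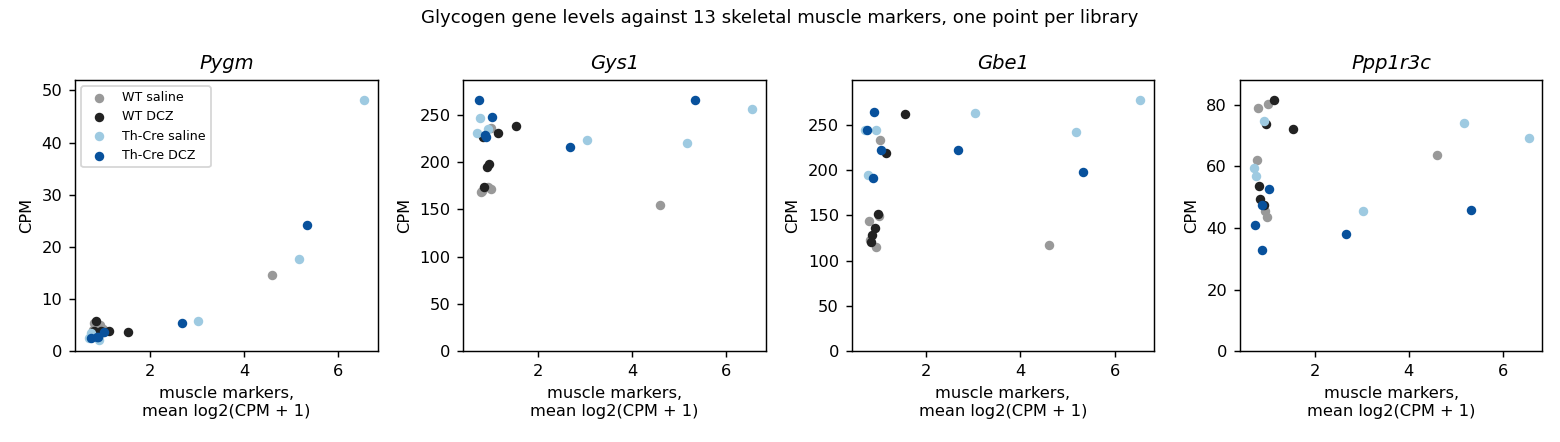
Levels of Pygm, Gys1, Gbe1 and Ppp1r3c in CPM against the mean log2 level of 13 skeletal muscle markers in the 24 libraries, by group. The 6 libraries named in the text lie apart at 2.68 or above on the x axis, where Pygm reaches 48.2 CPM and Ppp1r3c stays between 38.0 and 74.2 CPM.

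After DCZ, 0 of the 8 tested genes differed between genotypes by edgeR, where 6.75% of all genes were higher and 7.02% lower in Th-Cre mice. Log2 differences were 0.40 ± 0.177 for Gbe1 (unadjusted p = 0.0338, adjusted p = 0.131), 0.20 ± 0.0885 for Gys1 (adjusted p = 0.124), 0.36 ± 0.157 for Ugp2 (adjusted p = 0.127) and 0.43 ± 0.207 for Pygl (adjusted p = 0.163), by edgeR. Unadjusted p was under 0.05 for these 4. Ppp1r3b, higher in Th-Cre mice given saline, differed by −0.01 ± 0.152 here (95% interval −0.32 to 0.31, adjusted p = 0.978 by edgeR). Pygb (0.19 ± 0.111), Stbd1 (0.22 ± 0.189) and Gys2 (−0.03 ± 0.0926) did not pass either. DESeq2 (16.4% of all genes called) and limma-voom (13.5%) also called 0 of 8. With 8 genes tested, a count of 0 is near these shares. Without WT1 Gbe1 passed (0.58, adjusted p = 0.0186 by edgeR), where 18.4% of all genes were called. In males alone, where 5.59% were, Ugp2 passed (0.72, adjusted p = 0.0272 by edgeR). In females alone Ugp2 was at −0.05 (adjusted p = 0.942 by edgeR).

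The sexes differed in 3 of the 9 genes by edgeR, with Ppp1r3c lower and Pygb and Stbd1 higher in males, where 3.95% of all genes were higher and 4.11% lower in males. Ppp1r3c averaged 49.5 CPM in 12 males and 66.3 CPM in 12 females, a log2 difference of −0.42 ± 0.0819 (adjusted p = 0.00231 by edgeR). Every male lay below every female in WT saline, Th-Cre saline and Th-Cre DCZ mice, and the sexes overlapped in WT DCZ mice. Each group held 3 mice of either sex, and the fit of DCZ had a term for it. The sex test of Ppp1r3c also used the Th-Cre libraries that chose the gene, and their spread. Its p is therefore not wholly free of that choice.

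Pygb averaged 89.6 CPM in males and 66.5 CPM in females, a log2 difference of 0.43 ± 0.0787 (adjusted p = 0.00134 by edgeR). Every male lay above every female in those same 3 groups, with overlap in WT DCZ mice. Stbd1, which binds glycogen and is known for its part in carrying it to lysosomes, had 6.84 CPM in males and 4.93 CPM in females, a log2 difference of 0.47 ± 0.135 (adjusted p = 0.0311 by edgeR). For Stbd1 every male lay above every female in WT saline mice only, with overlap in the other groups. It was the gene with the fewest counts, 43 to 150 a library, and lost the call without any 1 of 9 single libraries (adjusted p 0.0501 to 0.0568 by edgeR). Without the 6 libraries with raised muscle markers Ppp1r3c (−0.45, adjusted p = 0.0142) and Pygb (0.41, adjusted p = 0.0205) kept the call and Stbd1 did not (0.44, adjusted p = 0.0625). Ppp1r3b had the same sign as Ppp1r3c, −0.32 ± 0.108, and missed the threshold (adjusted p = 0.0673 by edgeR). Its log2 ratio of males to females was −0.71 in WT saline and −0.33 in WT DCZ mice. In Th-Cre mice it was −0.28 after saline and 0.04 after DCZ.

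Of 23 other glycogen genes, 22 passed the filter, which removed Ppp1r3a. After DCZ, 0 of 22 passed by edgeR in WT mice (15 positive, 7 negative) and 0 of 22 in Th-Cre mice (8 positive, 14 negative), beside 0.00762% and 0.0229% of all genes, so these counts are near the background. The smallest adjusted p in Th-Cre mice was 0.227, for Ppp1r3g, a targeting subunit of low level named here after its value was seen. It ran from 0.311 to 1.87 CPM after saline and from 1.41 to 6.12 CPM after DCZ (6 to 105 counts), a log2 difference of 1.73 ± 0.450. In females it did not overlap (5.97 to 6.12 CPM after DCZ), and in males it did.

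Between genotypes in saline, 8 of the 22 were higher in Th-Cre mice and 0 lower by edgeR, beside 12.5% and 12.4% of all genes. Among those with the smallest p were Phkb (0.51, adjusted p = 0.00158), the regulatory beta subunit of phosphorylase kinase; Epm2a (0.64, adjusted p = 0.00548), the glycogen phosphatase laforin; and Ppp1cb (0.41, adjusted p = 0.00669), a catalytic subunit of protein phosphatase 1. They also held the targeting subunits Ppp1r3e (0.56, adjusted p = 0.00934) and Ppp1r3d (0.39, adjusted p = 0.0122), all by edgeR. In DCZ, 5 were higher and 2 lower, beside 6.75% and 7.02% of all genes, so the count of lower genes is near the background. Among those with the smallest p were Phkb (0.53, adjusted p = 0.00197), Phkg2, a catalytic subunit of phosphorylase kinase (−0.36, adjusted p = 0.00614), Ppp1r3d (0.48, adjusted p = 0.00669), Phka2 (0.29, adjusted p = 0.0194) and Ppp1ca (−0.18, adjusted p = 0.0275), by edgeR.

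By sex, 1 of the 22 was higher in males, Phka2, an X-linked subunit of phosphorylase kinase (0.31, adjusted p = 0.00150 by edgeR). This count is near the 3.95% of all genes that were higher in males. Of the 22, 2 were lower in males, beside 4.11% of all genes: Phkg1, the muscle-type catalytic subunit (−0.80, adjusted p = 0.00251), and Gyg, the glycogenin that primes new chains (−0.25, adjusted p = 0.0336). Of the 6 libraries with raised muscle markers 4 were female, and their part in the Phkg1 difference was not tested.

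After group and sex means were taken out, the levels of 4 of the 9 genes (Gbe1, Ugp2, Pygl and Ppp1r3b) varied together over the 24 libraries. As a description with no p, Pearson r was 0.87 for Gbe1 with Ppp1r3b, 0.82 for Ugp2 with Ppp1r3b, 0.80 for Pygl with Ugp2, 0.79 for Gbe1 with Pygl, 0.78 for Gbe1 with Ugp2 and 0.77 for Ppp1r3b with Pygl. Ppp1r3c followed Ppp1r3b (0.69) and Gbe1 (0.57) and less so Pygl (0.36). Gys2 had r of 0.36 or less with each of the others, and Gys1 went with Pygb (0.69). Genes measured in the same library share its depth, its tissue piece and its muscle content, which varied between libraries as given above. Sex was taken out as 1 term for all groups. DCZ differences that were unlike in females and males, as given above, therefore stay in these values, and their part in r was not tested. Split by genotype, r of Ppp1r3c with Ppp1r3b was 0.85 over 12 WT libraries and 0.07 over 12 Th-Cre libraries. With Gbe1, r of Ppp1r3c was 0.74 in WT and −0.24 in Th-Cre libraries, and with Pygl 0.70 and −0.32. For Gbe1 with Ppp1r3b it was 0.90 and 0.71.

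**Figure D5:**
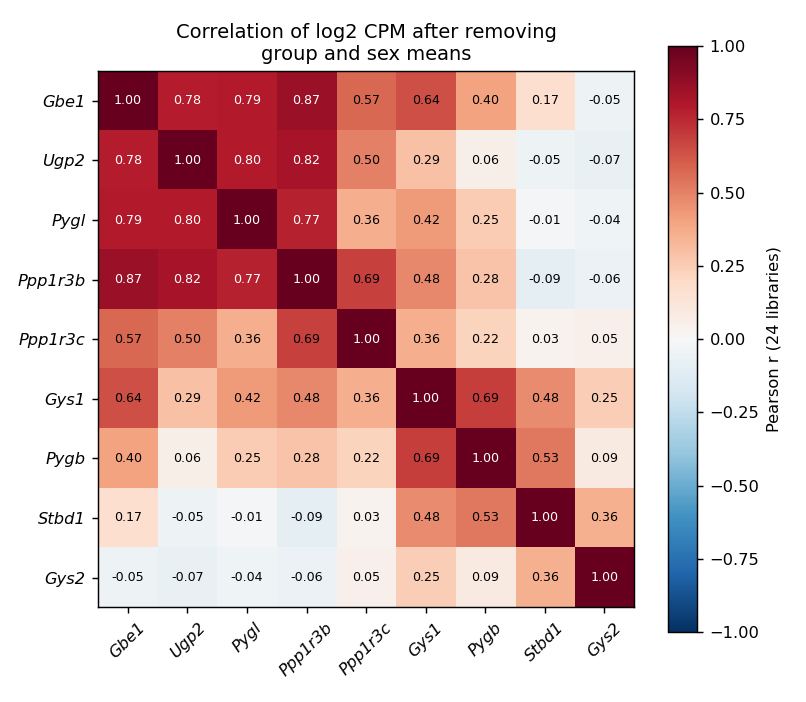
Pearson r between the 9 genes over 24 libraries, of log2 CPM less group and sex means (color scale from −1 to 1). Gbe1, Ugp2, Pygl and Ppp1r3b form the block with r from 0.77 to 0.87, and Ppp1r3c reaches 0.69 with Ppp1r3b.

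By the same measure the genes most like Ppp1r3c among 9779 genes were Ccndbp1 (r = 0.73), Fam149b (0.73), Lrrc20 (0.72), Mypop (0.72) and Axin2 (0.71), and Ppp1r3b ranked 8 with 0.69. The most opposite were Psen2 (−0.73), Grrp1 (−0.70) and Xlr3b (−0.67). These values are a description and carry no p.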

How the data were processed

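Polyadenylated RNA of 24 mice was sequenced, 1 library a mouse. The table used holds estimated counts per gene symbol, whole numbers as deposited, made with kallisto 0.44.0 on GRCm38.p6, per the submitters' processing notes. Neither the transcript set nor the use of strand is stated in these sources. The authors also deposited normalized signal, in 1 table for each genotype, where each value is a count divided by 1 size factor per library. They were used only as an alternative.

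Genes were filtered with filterByExpr by group, which left 13129 of 36144 genes with 99.9% of counts. Normalization was by TMM. In R 4.3.3, edgeR 4.0.16 fitted a quasi-likelihood model to all 24 libraries, with group means and a sex term, and Benjamini-Hochberg adjustment ran over all 13129 genes; an adjusted p under 0.05 is a call. An SE is the log2 difference divided by the square root of F. The biological coefficient of variation was 15.6%. The fit was also run on simulated counts, with the same spread for all genes and changes in WT DCZ libraries only. That run does not speak for the other comparisons, and its result is not reported here. Every adjusted p without another tool named comes from edgeR.

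The members and gene lists were chosen with earlier results of these data known. Named were all 9 genes, the other glycogen genes that passed (the 6 with the smallest p where more did, 1 of which is not reported here), and the 5 genes most and 3 least correlated with Ppp1r3c (log2 CPM with a prior count of 2, less group and sex means, genes at a mean log2 CPM of at least 2). The marker score is the mean log2(CPM + 1). Alternatives were other size factors, filters, limma-voom 3.58.1, DESeq2 1.42.0, no sex term, each sex alone, the 2 groups alone and leaving out each library; leaving out the 6 libraries with muscle transcripts was chosen after seeing the data. Replicate numbers do not pair mice across groups.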

Additional observations from a re-analysis of the deposited data

Results flagged for a closer look

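Of 36 sets of 6 values (9 genes in 4 groups), 3 held a library whose gap to the others exceeded Dixon's 95% critical value, where chance flags about 1 in 20, or 1.8. WT2, a WT saline female, was high for Gbe1 (232 CPM, next 149 CPM) and for Gys1 (235 CPM, next 173 CPM). WT10, a WT DCZ female, was low for Stbd1 (3.07 CPM, next 5.50 CPM).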

How the results depend on the processing

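The difference of Ppp1r3c in Th-Cre mice after DCZ was −0.56 and ran from −0.61 to −0.53 without single libraries and from −0.64 to −0.54 under the other alternatives. Its difference from the WT change, −0.59, ran from −0.67 to −0.49 and from −0.69 to −0.49. In WT mice DCZ gave 0 called members under each alternative run, where at most 0.294% of all genes were called (without WT2). Between genotypes in saline the count of 4 ran from 4 to 5 without single libraries, where 17.8% to 32.2% of all genes were called. It was 0 in females alone (0.0453% of all genes), 2 in males alone (5%) and 0 without the 6 libraries with muscle transcripts (0.813%). Between genotypes in DCZ the count of 0 ran from 0 to 1 without single libraries, where 6.42% to 18.4% of all genes were called. It was 1 without WT1 (18.4% of all genes) and 1 in males alone (5.59%). The count of 3 between sexes ran from 2 to 4 without single libraries, where 5.96% to 8.79% of all genes were called. Ppp1r3b passed between sexes by DESeq2 (adjusted p = 0.0362) and, by edgeR, without WT1 (0.0221) or WT6 (0.0401). The cause of these shifts was not tested; settings with 1 sex or without 6 libraries also hold fewer samples. No called difference changed sign under the alternatives run. That of Ppp1r3c in Th-Cre mice after DCZ did not either, but this contrast chose the gene, so its sign is no separate support. Of all 54 member differences, 23 changed sign under at least 1 alternative, all at 0.356 or less in size with all libraries. Among them Ugp2 in Th-Cre mice after DCZ was 0.20 in males and −0.60 in females, its difference from the WT change 0.31 and −0.66, and its genotype difference in DCZ 0.72 and −0.05. Other scalings moved the median of all genes by less than 0.1 on the log2 scale. No paired analysis was possible because replicate numbers do not mark shared litters, days or animals across groups. Stbd1, with 43 to 150 counts a library, is the gene whose depth limits precision most.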
